A study of Mus musculus with 22 samples.

Results

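Meningeal fibroblast genes are described here along 3 series of slabs through the mouse brain: the proteoglycans Dcn, Lum and Ogn, the type I collagen chains Col1a1 and Col1a2, the growth factor Igf2, the transcription factor Foxc1 and the transporter Slc6a13. These 8 genes were taken by name from the 20129 gene symbols that the array's RefSeq probes carried. They were chosen with earlier results of these data known, so shares of all probes set beside them are descriptive and no test. Each of the 8 genes had 1 RefSeq probe, and each of these probes was well above background on all 22 arrays.

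In Transcriptome Tomography a brain is cut from one side to the other, consecutive slices are pooled into a slab called a fraction, and a microarray reads its RNA. The study read total RNA of 22 fractions from 3 male C57BL/6J mice kept under pathogen-free conditions, an inbred strain with no treatment or engineered allele named in the labels. Mouse 1 gave 10 coronal fractions, mouse 2 gave 6 horizontal fractions and mouse 3 gave 6 sagittal fractions, with 1 array and no replicate for each. Sample titles name a 7 day old mouse and the study lists these fractions under that age, while the age field of the labels says 3 days. The labels give slabs of 500 µm, while the study's methods name thicker fractions. Some ends hold more than 1 slab: coronal fraction 10 holds slabs 10 and 11, sagittal fraction 1 holds slabs 1 and 2, and sagittal fraction 6 holds slabs 7 to 9. A series is therefore 1 animal, and an animal and a section plane cannot be told apart. The tissue label is brain, and how much of the membranes stayed on the brain is not stated in the sources used here.

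The meninges are the membranes that wrap the brain, and their fibroblasts build a collagen and proteoglycan matrix between the skull and the brain surface. A slab at an end of a series can take in a wide sheet of surface, though how much each end held was not measured. An inner slab is cut across the surface and holds it as a rim, also where membrane folds into fissures and around vessels. Similar fibroblasts lie around larger vessels and in the stroma of the choroid plexus. Decorin (Dcn), lumican (Lum) and osteoglycin (Ogn) are small leucine-rich proteoglycans of the matrix, and Col1a1 and Col1a2 encode the chains of type I collagen. Igf2 is a secreted insulin-like growth factor of the membranes and vessels, Foxc1 is a forkhead factor needed for the membranes to form, and Slc6a13 (GAT2) takes up GABA and taurine.

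Levels are processed intensities on a log2 scale, relative to the 75th percentile of their array, so 0 is that percentile and 1 unit is a doubling. Levels of different genes come from different probes and are not set against each other. In slabs, fewer fibroblasts and less RNA per fibroblast cannot be told apart. Of 55600 probes, an array had 29605 to 41965 well above background, and the 39621 that were so in at least 1 fraction of each series entered the tests. The array software marked the spike-in slope as out of range on 7 arrays, namely coronal 1 and 2, horizontal 1 to 3 and sagittal 1 and 3, which include every first end and no last end. The labels do not say which end fraction 1 is. Of the marker lists for orientation, the summed scaled signal (processed intensity over the array's 75th percentile) of 4 Hox genes of the hindbrain was 37.7 in coronal fraction 1 and at most 4.84 on any other array. That of 3 olfactory bulb genes was 53.6 in coronal fraction 10 and at most 7.35 elsewhere. That of 4 hypothalamic genes was 81.7 in horizontal fraction 6 and at most 21.5 elsewhere.

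RefSeq promoter windows, from 250 bases before to 50 bases after a transcript start in build GRCm38.p6, were held for 5 of the 8 genes. The windows of the genes with a single listed start are shown, those of a collagen, a transcription factor and a proteoglycan. Col1a2 and Ogn had r of 0.75 over the coronal, 0.91 over the horizontal and 0.21 over the sagittal fractions. Capitals mark matches on either strand to the CCAAT box (CCAAT, reverse ATTGG) or the TATA box (TATAAA, reverse TTTATA). All lie on the plus strand, at chr6:4505368-4505667, chr13:31806396-31806695 and chr13:49607765-49608064.
Col1a2: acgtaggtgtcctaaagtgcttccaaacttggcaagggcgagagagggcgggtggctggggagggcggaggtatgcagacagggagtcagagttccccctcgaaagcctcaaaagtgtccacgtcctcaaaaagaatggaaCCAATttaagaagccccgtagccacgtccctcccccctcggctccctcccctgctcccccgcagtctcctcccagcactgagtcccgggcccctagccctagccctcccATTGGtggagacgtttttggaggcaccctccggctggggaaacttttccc
Foxc1: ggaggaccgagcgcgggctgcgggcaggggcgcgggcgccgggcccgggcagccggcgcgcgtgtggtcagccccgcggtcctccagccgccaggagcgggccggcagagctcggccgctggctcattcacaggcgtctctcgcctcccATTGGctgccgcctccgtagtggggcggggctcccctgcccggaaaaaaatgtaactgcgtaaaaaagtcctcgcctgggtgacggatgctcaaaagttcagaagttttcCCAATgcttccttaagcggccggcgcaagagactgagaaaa
Ogn: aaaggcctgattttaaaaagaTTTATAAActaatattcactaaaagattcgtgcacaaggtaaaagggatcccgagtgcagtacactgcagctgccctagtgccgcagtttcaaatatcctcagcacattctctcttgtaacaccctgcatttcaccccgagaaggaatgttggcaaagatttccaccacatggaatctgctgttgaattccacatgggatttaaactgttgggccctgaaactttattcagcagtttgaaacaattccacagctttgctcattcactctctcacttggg
Col1a2 and Foxc1 held 2 CCAAT boxes each and no TATA box, and Ogn held no CCAAT box and 2 overlapping TATA matches on opposite strands far upstream of its start. A CCAAT box was in 37.4% and a TATA box in 13.6% of the 32851 windows of the table. GC content was 61% for Col1a2, 67.3% for Foxc1 and 42.3% for Ogn, with a median of 52.7% over all windows. The forkhead core that Foxc1 and its relatives bind (GTAAACA, reverse TGTTTAC), held by 3.65% of all windows, was in none of the 10 windows of Col1a2, Foxc1, Igf2, Ogn and Slc6a13. These letter matches do not show a site, and nothing follows from them about the binding of a factor.

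Along the horizontal series the 8 genes had 1 shape: higher in fraction 1 than in fractions 2 and 3, and then higher again with each fraction from 4 to 6. The spike-in slope was out of range on fractions 1 to 3 and in range on 4 to 6. The step between fractions 3 and 4 and that slope cannot be told apart. Dcn had a lowest level of 3.29 in fraction 3, a median of 4.25 and a highest of 5.73 in fraction 6, with 4.69 in fraction 1. Ogn was at 2.24 in fraction 1, between 0.62 and 1.19 in the inner fractions and at 3.21 in fraction 6. Slc6a13 was at 3.28, between 1.52 and 2.71, and at 4.39 in the same places. All of these had both ends on top. Lum had the flattest middle, between -0.14 and 0.19, with 1.41 and 1.96 in the ends. Foxc1 lay between -0.10 and 0.45 inside, with 1.44 and 2.06 in the ends. Both ends lay above every inner fraction for Dcn, Lum, Ogn, Foxc1 and Slc6a13, that is 5 of 8 genes against 11.1% of all probes tested. For Col1a1, Col1a2 and Igf2 fraction 1 overlapped the inner fractions, with fraction 5 above it. Col1a1 was at 2.57, 1.70, 1.79, 2.15, 3.20 and 4.25 in fractions 1 to 6, Col1a2 at 4.63, 3.69, 3.62, 4.09, 4.87 and 5.94, and Igf2 at 0.54, 0.05, -0.04, 0.79, 1.17 and 2.02. All 8 genes had their highest horizontal level in fraction 6, where 14.9% of all probes had theirs.

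**Figure D1:**
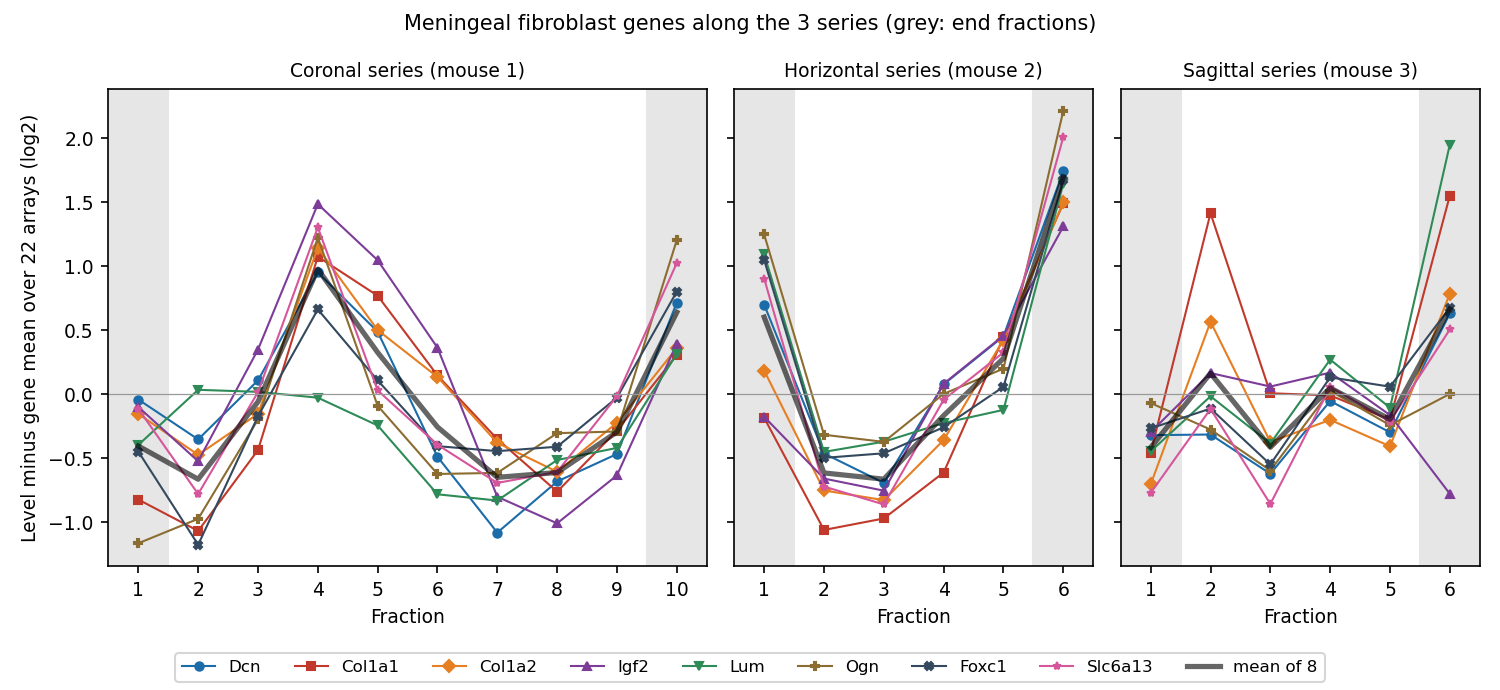
Level of each of the 8 genes minus its mean over the 22 arrays (log2, y axis) by fraction (x axis) in the coronal, horizontal and sagittal series. The thick line is the mean of the 8 genes and grey bands mark the 2 end fractions of a series. The mean is highest in horizontal fraction 6 (1.70), coronal fraction 4 (0.98), sagittal fraction 6 (0.67) and coronal fraction 10 (0.64).

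Along the coronal series the genes had a peak inside the brain as well as one at the last end. The mean of the 8 centred levels was -0.40 in fraction 1, -0.66 in fraction 2 and 0.98 in fraction 4, then came down to -0.65 in fraction 7 and was 0.64 in fraction 10. Col1a2 had a lowest level of 3.84, a median of 4.29 and a highest of 5.59, the last in fraction 4, with 4.29 and 4.81 in the ends. Igf2 ran from -0.30 in fraction 8 to 2.20 in fraction 4, with a median of 0.84. Slc6a13 ran from 1.60 in fraction 2 to 3.68 in fraction 4, with a median of 2.32 and 3.40 in fraction 10. These genes thus had their top inside the brain, above both ends. Dcn ran from 2.91 in fraction 7 to 4.94 in fraction 4, with a median of 3.79 and 3.95 and 4.70 in the ends. Col1a1 ran from 1.69 in fraction 2 to 3.83 in fraction 4, with a median of 2.44 and 1.93 and 3.06 in the ends. Ogn had peaks of like height in fraction 4 (2.22) and fraction 10 (2.20), with a median of 0.70. Fraction 4 held the highest coronal level of Dcn, Col1a1, Col1a2, Igf2, Ogn and Slc6a13, that is 6 of 8 genes, where 4.49% of all probes had theirs. Fraction 4 was above both of its neighbours in 7 of 8 genes, against 22.1% of all probes, by 0.65 (Dcn) to 1.37 (Ogn) over the mean of fractions 3 and 5. Lum was the exception, at 0.33, 0.29 and 0.07 in fractions 3, 4 and 5, and was highest in fraction 10 (0.63), as was Foxc1 (1.19), where 11.8% of all probes were highest. Fraction 1, the end with the hindbrain Hox signal, was above every inner fraction for none of the 8 genes, against 7.70% of all probes, and below every one of them for Ogn (-0.17), that is 1 of 8 genes against 5.41% of all probes. The place in the brain of coronal fraction 4 is not given by the labels.

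The other genes of the membranes were counted in the same places. Of 23 listed meningeal transcription factors, transporters, enzymes and signals, 15 had their highest coronal level in fraction 4, and 19 their highest horizontal level in fraction 6. Of 19 tested fibroblast collagen and matrix genes, 9 and 16 did. Of all probes 4.49% and 14.9% did. These lists, too, were chosen with earlier results of these data known. Among other cell types, the summed signal of 7 pericyte and smooth muscle markers was highest in horizontal fraction 6 (31.1) and then in coronal fraction 4 (19.4), and lay between 8.29 and 15.3 on the other arrays. Acta2, the actin of smooth muscle, was at 2.45 in coronal fraction 4 and 3.13 in horizontal fraction 6, against -0.21 to 1.64 elsewhere. Tagln, the transgelin of smooth muscle, was at 2.97 and 4.09 in these fractions and between 1.39 and 2.77 elsewhere. The 7 markers did not move as 1 list: their median r with the mean of the 8 genes was 0.03, with 0.74 for Tagln, 0.68 for Acta2, -0.02 for Rgs5, -0.33 for Abcc9 and -0.37 for Kcnj8. The part of vessels in the levels of the 8 genes was not tested. For the choroid plexus, the summed signal of its 6 markers, most of it from the transthyretin gene Ttr, was 29.0 in coronal fraction 4 and 252 in fraction 3, while in the sagittal series it was highest in fraction 6 (166). Kcnj13, a potassium channel gene of that list, had r of 0.54 with the mean of the 8 genes, and the other 5 markers had r of -0.40 to -0.03. The part of the choroid plexus in the levels of the 8 genes was not tested.

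Along the sagittal series the 8 genes did not share 1 shape. Dcn, Col1a1, Col1a2, Lum, Foxc1 and Slc6a13 were highest in fraction 6, that is 6 of 8 genes, where 33.8% of all probes were highest. Lum was at -0.13, 0.30, -0.07, 0.58, 0.21 and 2.26 in fractions 1 to 6. Its first 5 fractions thus lay together and its last end stood above them. Col1a1 was at 2.30, 4.17, 2.76, 2.75, 2.56 and 4.31, and Col1a2 at 3.74, 5.01, 4.07, 4.25, 4.04 and 5.23. Both collagen chains were high in fraction 2 as well as in fraction 6 and low in fraction 1. Dcn had no such peak, with 3.67 in fraction 2. A rise in fraction 2 was not limited to the collagen chains. All 8 genes were above the mean of fractions 1 and 3 there, by 0.06 (Ogn) to 1.64 (Col1a1). Outside the collagen chains the largest such rise was that of Slc6a13 (0.70), which was higher still in fraction 4 (2.44). Igf2 was at 0.42, 0.88, 0.77, 0.88 and 0.55 in fractions 1 to 5 and lowest in fraction 6. Ogn lay between 0.40 and 1.02, and its value in fraction 6 (1.00) was inside that of the inner fractions. Fraction 1, also an end, was above every inner fraction for none of the 8 genes, against 33.2% of all probes. It was below every inner fraction for Col1a1, Col1a2, Igf2 and Lum, against 23.7% of all probes.

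Type I collagen is also the main protein of bone, and of the bone markers Ibsp and Dmp1 were high in the same sagittal fractions as the collagen chains. Ibsp, the bone sialoprotein gene, was at 1.62 in sagittal fraction 2 and 1.69 in fraction 6, and between -6.71 and -2.26 on the other 20 arrays. Dmp1, a gene of bone-embedded osteocytes, was at -1.76 and -2.03 in these fractions and at -3.93 or less elsewhere, and was well above background on 4 arrays. Of the 6 listed osteoblast markers 5 had a probe and none was below background on all arrays. Their summed signal was 0.840 to 4.30 in the 6 ends and 0.412 to 4.58 in the 16 inner fractions, with both highest values in sagittal fractions 2 and 6. Of the others, Sp7 was at -4.37 and -4.51 and Alpl at 0.18 and -0.45 in these fractions, against -4.89 to -4.10 and -0.55 to -0.01 in the other sagittal fractions. Runx2 was at -4.60 and -4.15, against -5.52 to -4.31, and was well above background on 2 arrays. The part of bone in the levels of Col1a1 and Col1a2 was not tested. In coronal fraction 4 and horizontal fraction 6, where the collagen chains were also high, Ibsp was at -4.11 and -3.13. In coronal fraction 10 Ibsp was at -2.26 and Sp7 at -2.32, the highest coronal level of each. Dmp1 was at -6.61, Alpl at 0.02 and Runx2 at -4.97 there, none of them at its highest coronal level.

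**Figure D2:**
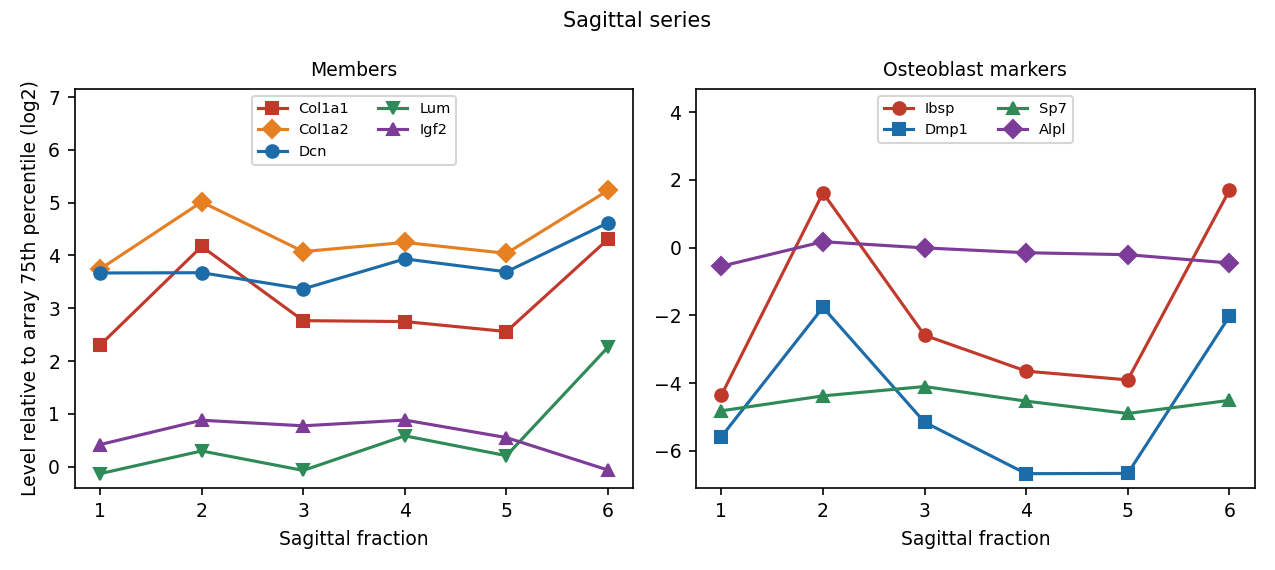
Levels relative to the array's 75th percentile (log2, y axes) in sagittal fractions 1 to 6 (x axes), each point 1 array, for 5 of the 8 genes (left) and 4 osteoblast markers (right). Col1a1 (4.17 and 4.31) and Ibsp (1.62 and 1.69) are both high in fractions 2 and 6, and Lum is high in fraction 6 alone (2.26).

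The ends were compared with the inner fractions in limma with an intercept for each series. The spread in these tests is that between inner slabs, which holds anatomy as well as error. Over all 6 ends against the 16 inner fractions, 0 of 8 genes and 0 of 39621 probes passed an adjusted p of 0.05 (0%), while 5 of the 8 and 5379 of all probes (13.6%) had an unadjusted p under it. All 8 differences were above 0, from 0.10 ± 0.34 (SE) for Igf2 to 0.89 ± 0.27 for Lum, with adjusted p-values from 0.274 to 0.898. Their median was 0.76, against 0.14 over all probes, of which 64.6% were above 0. Slc6a13 differed by 0.83 ± 0.32, Dcn by 0.78 ± 0.27 and Foxc1 by 0.77 ± 0.26, and the collagen chains by 0.40 ± 0.39 (Col1a1) and 0.47 ± 0.30 (Col1a2). These values moved with the fraction left out: without horizontal fraction 6 they were 0.10 and 0.22, and Igf2 turned to -0.16. Without sagittal fraction 6 Col1a1 was at 0.21, without coronal fraction 1 at 0.65 and without sagittal fraction 1 at 0.64. On the 15 arrays with the spike-in slope in range, the only ends left are the last ends, so the comparison is another one. The collagen chains differed by 0.94 and 0.80 between these ends and the inner fractions left.

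Taken one at a time, the ends had unlike values, while the tests between ends and between series given below passed 0 of the 8 genes. At horizontal fraction 6 all 8 genes were above the mean of the inner fractions, from 1.53 ± 0.78 for Igf2 to 2.34 ± 0.56 for Ogn, which is a 5.05-fold difference. Slc6a13 was 5.04-fold, Col1a1 4.11-fold, Foxc1 3.89-fold, Lum 3.83-fold, Dcn 3.73-fold and Col1a2 3.67-fold above the inner mean. All 8 also lay above every inner fraction, against 21.8% of all probes. By limma 0 of the 8 passed the adjusted threshold there, as 2 of 39621 probes did (0.00505%), while 7 of the 8 had an unadjusted p under 0.05, against 5.22% of all probes. The lowest adjusted p was 0.0846, for Lum. The median difference of the 8 was 1.95, against -0.03 over all probes, of which 47.6% were above 0.

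At sagittal fraction 6 Lum was the 1 gene of the 8 that passed, and it rose by 2.01 ± 0.34 (limma, adjusted p = 0.0179), a 4.02-fold difference. There 2106 of 39621 probes passed (5.32%), and the 1 of 8 genes is read against that share. Dcn, Col1a1, Col1a2, Foxc1 and Slc6a13 were 0.79 to 1.25 above the inner mean, Ogn 0.27 above it and Igf2 differed by -0.84 ± 0.78 (adjusted p = 0.711). When each array was centred on its median, Lum differed by 1.91 and no longer passed (adjusted p = 0.080), and 2 of all probes did. Without sagittal fraction 2 the count of all probes at this end was 658.

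At coronal fraction 10 all 8 genes were above the inner mean, by 0.36 to 1.44, and at horizontal fraction 1 by 0.04 to 1.38, with Lum (1.38 ± 0.34), Ogn (1.37 ± 0.56) and Foxc1 (1.34 ± 0.48) first. Of all probes 49.0% were above the inner mean at coronal fraction 10 and 64.2% at horizontal fraction 1. At coronal fraction 10 limma passed 0 of the 8 genes and 48 of all probes (0.121%), and at horizontal fraction 1 it passed 0 of the 8 and 17 of all probes (0.0429%). Unadjusted p-values were under 0.05 for 2 and 3 of the 8, against 6.96% and 9.90% of all probes. At coronal fraction 1 and sagittal fraction 1, 2 of the 8 genes were above the inner mean at each, with medians of -0.14 and -0.37, against 63.2% and 55.0% of all probes, with medians of 0.20 and 0.06. These counts changed with the processing: with the spike-in probe a107 as a covariate 6 and 7 of the 8 were above the inner mean, and with median centring 0 and 1. Without coronal fraction 4 the count at coronal fraction 1 was 4. Limma passed 0 of the 8 at both, and 1 (0.00252%) and 0 (0%) of all probes, and no unadjusted p of the 8 genes was under 0.05, against 3.53% and 1.90% of all probes.

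**Figure D3:**
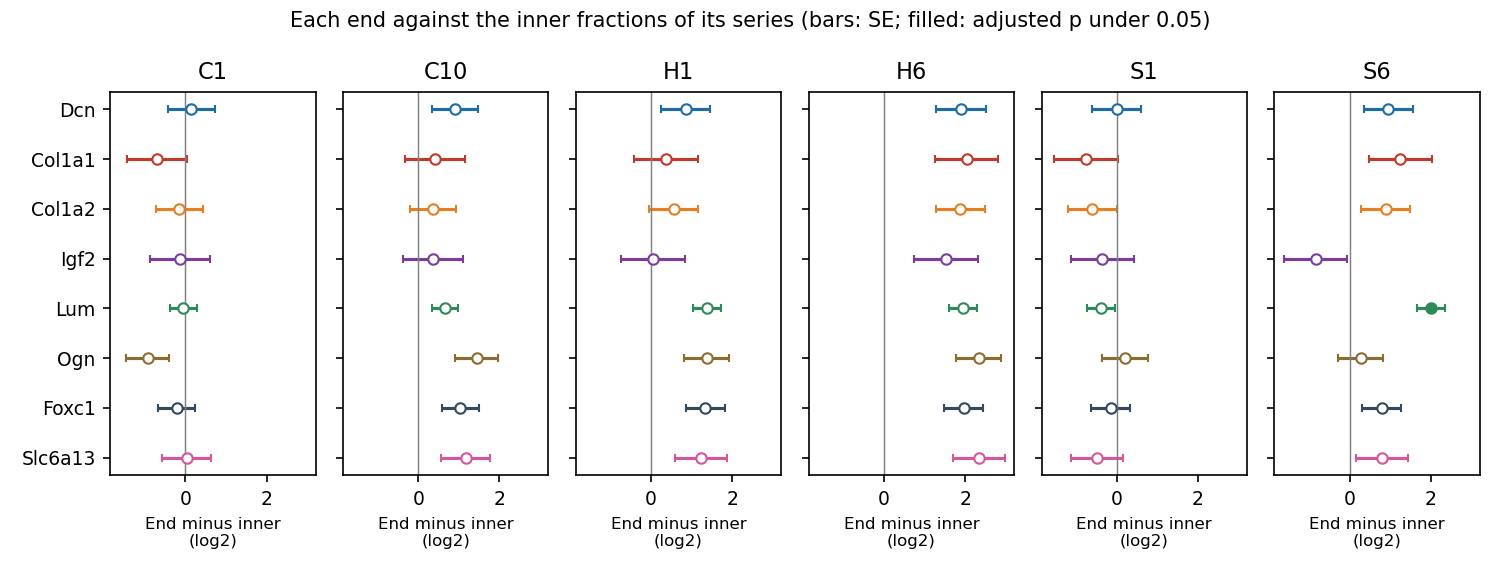
Difference between an end fraction and the mean of the inner fractions of its series (log2, x axes) for the 8 genes, 1 panel per end, with the SE of the limma fit as bars. Filled points have an adjusted p under 0.05. All 8 genes lie between 1.53 and 2.34 at horizontal fraction 6, Lum at sagittal fraction 6 is the filled point (2.01), and coronal and sagittal fraction 1 lie around or below 0.

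The 2 ends of a series were then set against each other. All 8 genes were higher at the last end than at the first in the coronal series (by 0.49 to 2.37) and in the horizontal series (by 0.55 to 1.68), and 7 of 8 in the sagittal series, where Igf2 differed by -0.48. Of all probes 42.7%, 40.8% and 48.0% were higher at the last end in these series. With the spike-in probe as a covariate the counts of the 8 were 8, 7 and 6. By limma 0 of the 8 passed in any series, beside 8 of all probes in the coronal (0.0202%), 8 in the horizontal (0.0202%) and 2 in the sagittal series (0.00505%). Unadjusted p-values under 0.05 numbered 1, 0 and 1 of the 8, against 5.83%, 7.25% and 15.1% of all probes. The nearest to the threshold was Lum in the sagittal series, with 2.40 and an adjusted p of 0.0637. Since the first ends are arrays with the spike-in slope out of range and the last ends are not, the end and that slope cannot be told apart in this comparison. Whether the end effect differed between series was tested by an F test in limma, which passed 0 of the 8 genes and 0 of 39621 probes (0%), with 902 of all probes (2.28%) and 0 of the 8 under an unadjusted 0.05. The means of both ends over the inner mean were 1.85 for Ogn, 1.78 for Slc6a13, 1.66 for Lum and 1.65 for Foxc1 in the horizontal series. In the coronal series they were 0.25, 0.60, 0.30 and 0.41, and in the sagittal series 0.24, 0.15, 0.81 and 0.32. Those of the other genes were 0.78 (Igf2) to 1.38 (Dcn) in the horizontal series. They were -0.14 (Col1a1) to 0.53 (Dcn) in the coronal and -0.59 (Igf2) to 0.48 (Dcn) in the sagittal series.

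How far the 8 genes varied together was described by Pearson r over arrays, which share labelling and scaling within an array and are neighbours in a brain. Over 22 arrays the 28 pairs had a median r of 0.71, from 0.21 (Igf2 and Lum) to 0.94 (Dcn and Slc6a13), and 7 pairs had r above 0.85. Over all pairs of 16692 genes the median was 0.026, and 0.760% of the pairs were above 0.85. Those genes were well above background in at least 1 fraction of each series, the 8 genes on all 22 arrays. The pairs were thus not matched for level. Within the series the median of the 28 pairs was 0.94 over the 6 horizontal, 0.75 over the 10 coronal and 0.66 over the 6 sagittal fractions. The collagen chains, whose products join in 1 protein, had r of 0.93, 0.99 and 0.99 in the coronal, horizontal and sagittal series. Lum was the gene apart in the coronal series, with r of 0.19 to Col1a1. Igf2 was the gene apart in the sagittal series, with r of -0.75 to Dcn, -0.72 to Lum and -0.66 to Foxc1. Without horizontal fraction 6 the median over the 21 arrays left was 0.62, and without sagittal fraction 6 it was 0.81.

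**Figure D4:**
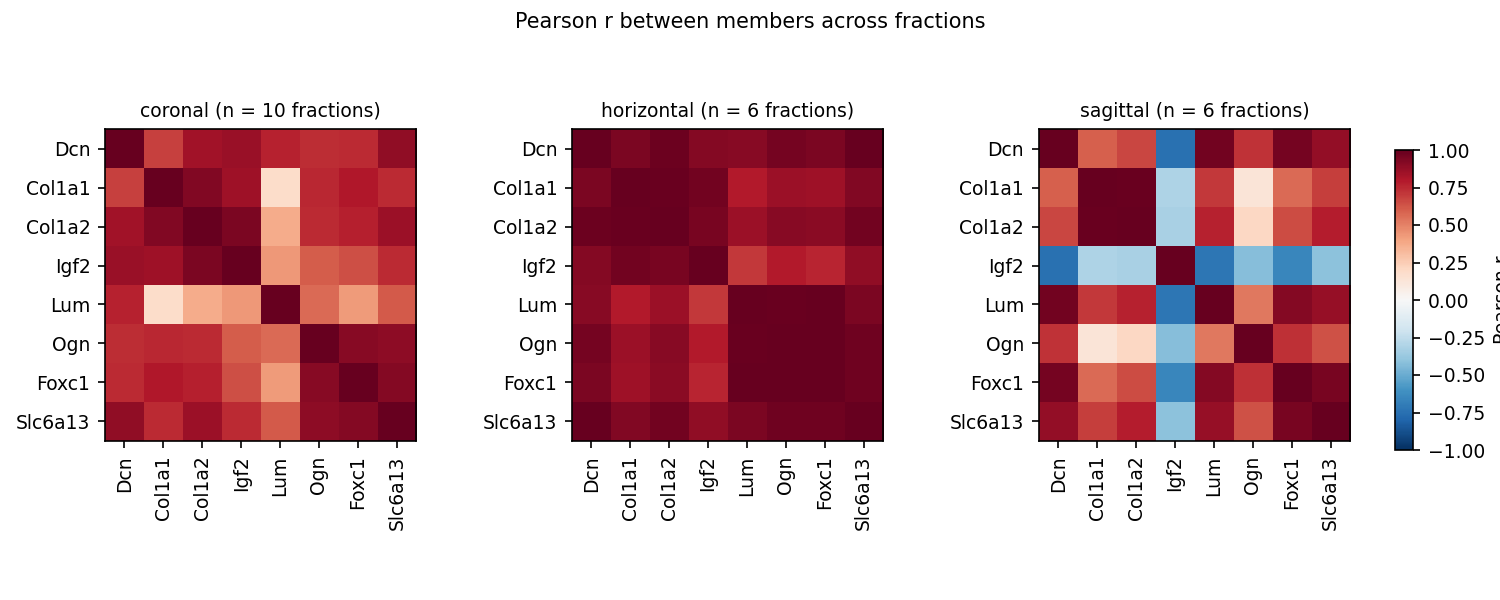
Pearson r between each pair of the 8 genes over the fractions of 1 series, coronal (n = 10), horizontal (n = 6) and sagittal (n = 6), on a colour scale from -1 to 1. Every horizontal pair is between 0.71 and 1.00, Lum has the palest row in the coronal panel, and the Igf2 row of the sagittal panel is negative throughout, down to -0.75.

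Some of the 8 genes are next to relatives in the genome, by the gene order of the RefSeq table. Dcn and Lum are neighbours, with r of 0.76 over 22 arrays, while Kera, the proteoglycan gene on the other side of Lum, was well above background on 4 arrays only. Ogn lies beside Omd, the osteomodulin gene, with r of 0.81. Igf2 lies beside Ins2, an insulin gene, and this pair went the other way, with r of -0.61, and of -0.69, -0.63 and -0.73 in the coronal, horizontal and sagittal series. Slc6a13 lies beside Slc6a12, which encodes the betaine and GABA transporter BGT1, with r of 0.87. Slc6a12 was at 1.37 in coronal fraction 4 and 1.59 in horizontal fraction 6, and between -2.11 and 0.07 elsewhere. The astrocyte GABA transporter Slc6a11 had r of 0.01 to the mean of the 8 genes.

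Of the other genes of their pathways, 0 of 9 tested genes of the insulin-like growth factor pathway, which Igf2 belongs to, passed at any end. Of all probes 5.32% passed at sagittal fraction 6 and 0% to 0.121% at the other ends, and counts of 0 are read against these shares. The 9 genes had a median difference of 0.19 at horizontal fraction 6, with 8 of 9 above 0, against 47.6% of all probes. Igfbp6, a binding protein with a preference for Igf2, was at 4.13 in horizontal fraction 6 and 3.90 in fraction 1, against 1.62 to 2.07 in the inner horizontal fractions. Igf1 was apart from it, at 2.20 in coronal fraction 10 and at most 0.55 elsewhere. Of 8 small leucine-rich proteoglycans beside Dcn, Lum and Ogn, biglycan (Bgn), which is also in the collagen and matrix list, was the 1 that passed, and it rose by 1.61 ± 0.36 at sagittal fraction 6 (limma, adjusted p = 0.0229). It was the 1 of 19 collagen and matrix genes to pass at that end, where 5.32% of all probes passed and 2 probes did with median centring. Of the 19, 0 passed at horizontal fraction 6, beside 0.00505% of all probes, and 18 were above the inner mean with a median of 1.74. At coronal fraction 1 and sagittal fraction 1, 8 and 7 of the 19 were above it, with medians of -0.15 and -0.25. Of the 23 meningeal factors, transporters, enzymes and signals 0 passed at any end, beside the shares of all probes given above. Above the inner mean were 23 of them at horizontal fraction 6 and 22 at coronal fraction 10, with medians of 1.82 and 1.00. There 47.6% and 49.0% of all probes were above it. At coronal fraction 1 and sagittal fraction 1, 11 and 9 were above it, with medians of -0.02 and -0.17. Of all probes 63.2% and 55.0% were. Of 20 matrix genes with a probe Mfap4, a microfibril protein, was unlike the 8 genes, with r of -0.28 and its highest level in coronal fraction 2 (5.58).

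The genes most like the mean of the 8 were ranked over 22 arrays among 16684 other genes. They were Gstm2 and Foxd1 (r = 0.96 each), Pcolce, Crabp2 and Gjb2 (0.95 each), Serpind1, Emp3, Tgfbr3 and Gpc3 (0.94 each) and Sult1a1 (0.93). Foxd1 is a forkhead factor, Pcolce helps to process the ends of procollagen, Crabp2 carries retinoic acid and Gjb2 is a gap junction protein. Gstm2 and Sult1a1 are detoxifying enzymes, Tgfbr3 and Gpc3 are proteoglycans of the cell surface, and Emp3 is a membrane protein. Foxd1, Pcolce, Crabp2 and Gjb2 were in the lists above. Each of the 8 genes was also set against the mean of the other 7, and r was 0.94 for Slc6a13, 0.93 for Dcn, 0.91 for Foxc1 and Col1a2, 0.84 for Ogn, 0.75 for Col1a1, 0.69 for Lum and 0.65 for Igf2.

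Markers of border macrophages, which live in the same membranes, moved with the 8 genes. Of 5 listed markers 4 were tested, and their median r with the mean of the 8 was 0.85. Their summed signal was 43.1 in horizontal fraction 6, 24.8 in horizontal fraction 1, 19.1 in sagittal fraction 6 and 16.8 in coronal fraction 10, and was 5.08 to 14.4 in the 16 inner fractions. Pf4 was at 4.70 in horizontal fraction 6 and 4.08 in fraction 1, against 2.06 to 2.28 between them. In coronal fraction 1 and sagittal fraction 1 the sum was 6.84 and 7.72. The haemoglobin and neutrophil markers of blood were also high in places, with a sum of 86.8 in horizontal fraction 1, 77.5 in horizontal fraction 6, 65.8 in sagittal fraction 6 and 64.4 in coronal fraction 1, and 16.2 to 56.9 in inner fractions. Coronal fraction 10, where all 8 genes were above the inner mean, had a sum of 17.3. Beside the 5.32% of all probes that passed at sagittal fraction 6, which median centring brought to 2 probes, some marker genes passed there. S100a8, a neutrophil gene, rose by 4.76 ± 1.22 at sagittal fraction 6 (limma, adjusted p = 0.0370). At the same end Cldn5, a tight junction gene of endothelium, rose by 1.24 ± 0.31 (adjusted p = 0.0335). The other 5 endothelial markers did not pass there, with differences from -0.37 (Flt1) to 1.65 (Kdr). The 6 markers had a median r of 0.62 with the mean of the 8 genes, and their summed signal was 130 in sagittal fraction 6, 86.0 in horizontal fraction 6 and 71.0 in horizontal fraction 1, against at most 68.5 in inner fractions. At sagittal fraction 6 Pomc, in the hypothalamic list, rose by 1.38 ± 0.29 (adjusted p = 0.0201). The other 3 genes of that list were below the inner mean there, by differences of -3.43 (Avp), -1.86 (Oxt) and -0.47 (Trh). The part of these cells in the levels of the 8 genes was not tested. Neuron markers were strong on each array, with a summed signal of 342 to 812.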

How the data were processed

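Total RNA of 22 brain fractions was labelled with Cy3 and hybridised to 1-colour Agilent SurePrint G3 mouse arrays, designed on build mm9, 1 array per fraction. Per the file headers, the authors extracted the processed intensity of each spot on a linear scale, background subtracted, with Agilent Feature Extraction 10.10.1.1. A log2 table that the authors deposited as well held the same quantity as computed here from the scanner files, with 99.9% of its values within 0.02.

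From the scanner files, control spots and outlier spots (131 to 187 per array) were left out, spots of 1 probe were averaged, and the log2 mean was set relative to the 75th percentile of its array. No spot was saturated. Of 55681 probes, 81 lacked a value on some array and 55600 were analysed. Symbols came from a RefSeq gene table of another build (GRCm38.p6), used for names and gene order, and 26553 of 28087 RefSeq probes matched. A gene is read from its RefSeq probe with the highest median. A spot of a bright repeated probe had a median SD of 0.065 log2 units over arrays, which is not the error of a fraction. Precision is limited by the number of arrays.

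The labels' section plane gave the groups, and ends are fraction 1 and the last fraction. Tests were run with limma 3.58.1 in R 4.3.3 (lmFit, eBayes, two-sided) over all 22 arrays and 39621 probes, with Benjamini-Hochberg adjustment and a threshold of 0.05. The model with both ends together left 18 residual degrees of freedom and that with 1 term per end 13. p-values measure the spread between slabs of 3 animals, not between animals. In simulated data with 200 probes changed by 2 log2 units, 77% were recovered over all ends and 28.5% at horizontal fraction 6 and 33% at sagittal fraction 6. The alternatives were median centring, quantile normalization, the spike-in a107 as a covariate, the slide as a block, other detection filters, the deposited log2 table and leaving out each fraction. Normexp on the median signals (offset 50, since no mean signal was read) and the 15 arrays with the slope in range were added after seeing the data. Another RefSeq probe per gene could not be tried, as each gene had 1. The named genes were the 8 genes, of each list the up to 4 genes past the threshold with the largest difference, and the 10 most similar genes. Of the lists, those for orientation and other cell types served as checks. Other list genes given with values, such as Ibsp, Slc6a12 and Igfbp6, were chosen after their values were seen. The members and lists were chosen with earlier results of these data known. No gene of the cartilage, skeletal muscle and cortex lists passed at any end, beside 0% to 5.32% of all probes by end. Figures were drawn with matplotlib 3.10.9 in Python 3.11.15.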

Additional observations from a re-analysis of the deposited data

Results flagged for a closer look

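Of 24 sets of values (8 genes in 3 series), 1 held a sample far from the others by Dixon's criterion, which chance alone gives in about 1 of 20. Lum in sagittal fraction 6 was at 2.26, with the next highest sagittal value at 0.58, a gap of 0.70 of the range against a critical value of 0.625.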

How the results depend on the processing

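No paired analysis was possible because the fractions of the 3 series share a number but neither an animal nor a place in the brain. The count of the 8 genes past the threshold was recomputed 292 times over 10 comparisons, and 286 gave the same count. At horizontal fraction 6, 1 gene (Lum) passed with normexp and 1 (Lum) with the probes well above background on all 22 arrays, where the count was 0. Leaving out single fractions gave 0 to 2 there, with 2 (Lum and Ogn) without coronal fraction 4. At sagittal fraction 6 the count was 0 with median centring, and Lum had adjusted p-values of 0.0079 to 0.080 over the settings and 0.012 to 0.043 over left-out fractions. Between the sagittal ends 1 gene (Lum) passed with the probes well above background on all 22 arrays, and left-out fractions gave 0 to 1, with 1 without coronal fraction 3. The causes were not tested. The difference of Igf2 over all ends was -0.16 without horizontal fraction 6 and 0.25 without sagittal fraction 6, its lowest and highest over left-out fractions, and no other direction over all ends turned. The 8 genes were all above the inner mean at horizontal fraction 6 and at coronal fraction 10 in each of 30 alternatives. At coronal fraction 1 their count above it was 0 to 6 and at sagittal fraction 1 it was 1 to 7, each lowest with median centring and highest with the spike-in a107 as a covariate, and at horizontal fraction 1 it was 7 to 8. Over settings Igf2 differed by 0.01 to 0.32. With the 15 arrays in range, the ends left are the last ends only, so the comparison is another one. There Lum differed by 1.42, Ogn by 1.18, Col1a1 by 0.94 and Col1a2 by 0.80. With the spike-in a107 as a covariate over all ends Col1a1 differed by 0.72 and Col1a2 by 0.71. Over left-out fractions Col1a1 differed by 0.10 to 0.65, Col1a2 by 0.22 to 0.67 and Ogn by 0.49 (without horizontal fraction 6) to 1.14 (without coronal fraction 1). At sagittal fraction 6 Lum differed by 1.80 to 2.01 over settings.

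Counts over all probes moved more: 0 to 11 over settings and 0 to 45 over left-out fractions for all ends, 0 to 42 and 0 to 135 at horizontal fraction 6 and 2 to 3511 and 658 to 2916 at sagittal fraction 6. At coronal fraction 10 they were 12 to 268 and 20 to 126, at horizontal fraction 1 8 to 42 and 10 to 45, at coronal fraction 1 0 to 22 and 0 to 8, and at sagittal fraction 1 0 to 72 and 0 to 2. Between ends they were 0 to 108 and 1 to 19 (coronal), 2 to 19 and 3 to 12 (horizontal) and 0 to 1419 and 1 to 1182 (sagittal). The median r of the 28 pairs was 0.68 to 0.77 over scalings, 0.72 with the spike-in a107 regressed out and 0.62 to 0.81 over left-out fractions. Arrays of 1 animal per series, with no replicate, limit every value.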
